A study of Mus musculus with 6 samples.

Results

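The axoneme genes described here are the protein-coding mouse genes whose symbol begins with Dnah, Dnaic, Dnali, Dnal, Dnaaf, Cfap, Tekt, Rsph or Drc followed by a digit. They numbered 71 of the 54532 genes listed for each library, of which 21995 were protein coding. The rule uses names and no values, but it was set with earlier results of these data known. An antisense gene, Dnah2os, also fitted the name rule and was left out because it is not protein coding. The 71 genes lay on 17 chromosomes, with 10 on chromosome 11, 8 each on chromosomes 1 and 5, and none on X or Y.

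RNA was sequenced from testis cells purified as pachytene cells by STA-PUT, which separates cells by how fast they sediment, from mice at about postnatal day 80. MAPS is a protein of male meiotic prophase, and the study asked about silencing of the sex chromosomes in its absence. EE_KO mice carried MAPS EE on a MAPS-/- background, labelled as overexpression of MAPS. KO mice were MAPS-/- and WT mice were wild type. Each group had 2 libraries, made in 2 independent experiments, and 3 mice of the same genotype were used per group. From the labels it is not known if mice were pooled within a library, what EE stands for or what drives its expression. The p-values below therefore measure only the spread between these libraries. Levels are FPKM (fragments per unit of gene length and of sequencing depth), which can be compared between genes because they are per length. Each library held 14178387 to 16565238 reads on genes, recovered from the FPKM and the gene lengths.

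The axoneme is the microtubule core of a cilium or sperm flagellum, built as a ring of doublet microtubules around a central pair. Dynein arms on each doublet slide it along its neighbour, nexin links (the nexin-dynein regulatory complex) turn sliding into bending, and radial spokes carry signals between the central pair and the arms. The flagellum is assembled after meiosis in spermatids, while transcription of many of its genes is known to begin in pachytene spermatocytes.

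The libraries labelled KO stood apart from the others in their cell type markers. The 12 pachytene markers summed to 5294 and 5766 FPKM in EE_KO, 206 and 249.5 FPKM in KO, and 6289 and 5696 FPKM in WT, and all 12 were lower in KO. The 15 spermatid markers summed to 2542 and 3679 FPKM in EE_KO, 24.2 and 23.1 FPKM in KO, and 1963 and 3948 FPKM in WT, and all 15 were lower in KO. In the other direction, all 10 Sertoli markers were higher in KO, with sums of 139 and 69.8 FPKM in EE_KO, 1357 and 1180.0 FPKM in KO, and 85.8 and 81.1 FPKM in WT. All 8 Leydig markers were also higher in KO, with sums of 181 and 86.2 FPKM in EE_KO, 2289 and 2183 FPKM in KO, and 59.4 and 111 FPKM in WT. The sum of 10 spermatogonial markers was 28.7 and 21.9 FPKM in EE_KO, 209.9 and 250.3 FPKM in KO, and 24.96 and 25.8 FPKM in WT. Peritubular, endothelial and blood markers (8 genes) summed to 6.34 and 3.42 FPKM in EE_KO, 30.4 and 27.6 FPKM in KO, and 3.51 and 3.20 FPKM in WT. Leukocyte markers (8 genes) summed to 5.02 and 4.32 FPKM in EE_KO, 26.1 and 21.5 FPKM in KO, and 3.77 and 4.10 FPKM in WT. Single markers of these lists went the other way, with both KO libraries below both WT libraries for Gfra1 and Cx3cr1. The pachytene marker Piwil1 stood at 2.62% of its WT level in KO, whereas Sycp3, a synaptonemal complex protein, stood at 66.2%. Whether cell makeup differed, and what part it had in the results below, was not tested. In bulk RNA fewer cells of a type and less RNA per cell cannot be told apart. The MAPS gene itself, 1700102P08Rik, had 109 and 82.2 FPKM in EE_KO, 7.97 and 10.1 FPKM in KO, and 157 and 150.2 FPKM in WT.

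Axoneme genes were far lower in KO than in WT and near the WT level in EE_KO. Together they made up 1.72 and 1.74% of all FPKM in EE_KO, 0.0999 and 0.121% in KO, and 1.92 and 1.79% in WT. The median gene of the 71 had 40.5 FPKM in EE_KO, 1.78 FPKM in KO and 43.4 FPKM in WT. Testing was limited to genes with a mean of at least 1 FPKM over the 6 libraries, which 66 of the 71 passed. The other 5, Dnah5, Dnah9, Dnah11, Rsph4a and Cfap97d2, had means below 1 FPKM and are described with their families.

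In KO against WT all 66 fell (limma on log2(FPKM + 1), Benjamini-Hochberg adjusted p below 0.05), where 48.1% of all genes tested were lower and 38.0% higher. Over all genes this balance turned to 6407 lower and 6824 higher after rescaling to TPM, and to 6402 lower and 6664 higher after quantile scaling. The median log2 change was -4.11 for axoneme genes and -0.29 for all 15363 genes tested. A fall of at least 4 on the log2 scale was found for 36 of the 66, or 54.5%, against 5.26% of all genes tested. Falls of this depth were not particular to axoneme genes. The median log2 change was -4.99 for the 12 pachytene markers and -6.12 for the 15 spermatid markers. The median axoneme gene kept 3.06% of its WT level, with quartiles of 2.38 and 6.20%, and 44 of 66 kept less than 5%. Both KO libraries lay below both WT libraries for all 66, against 51.8% of all genes tested.

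In EE_KO against KO all 66 were higher, where 47.8% of all genes tested were, with a median log2 change of 4.04 for axoneme genes and 0.26 for all genes. This comparison shares its KO libraries with KO against WT, so that the pair of counts is not independent. In EE_KO against WT none of the 66 was called, where 0.0260% of all genes tested were called higher and 0.0195% lower by limma. At an unadjusted p below 0.05 there were 2 axoneme genes, against 7.48% of all genes tested.

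**Figure D1:**
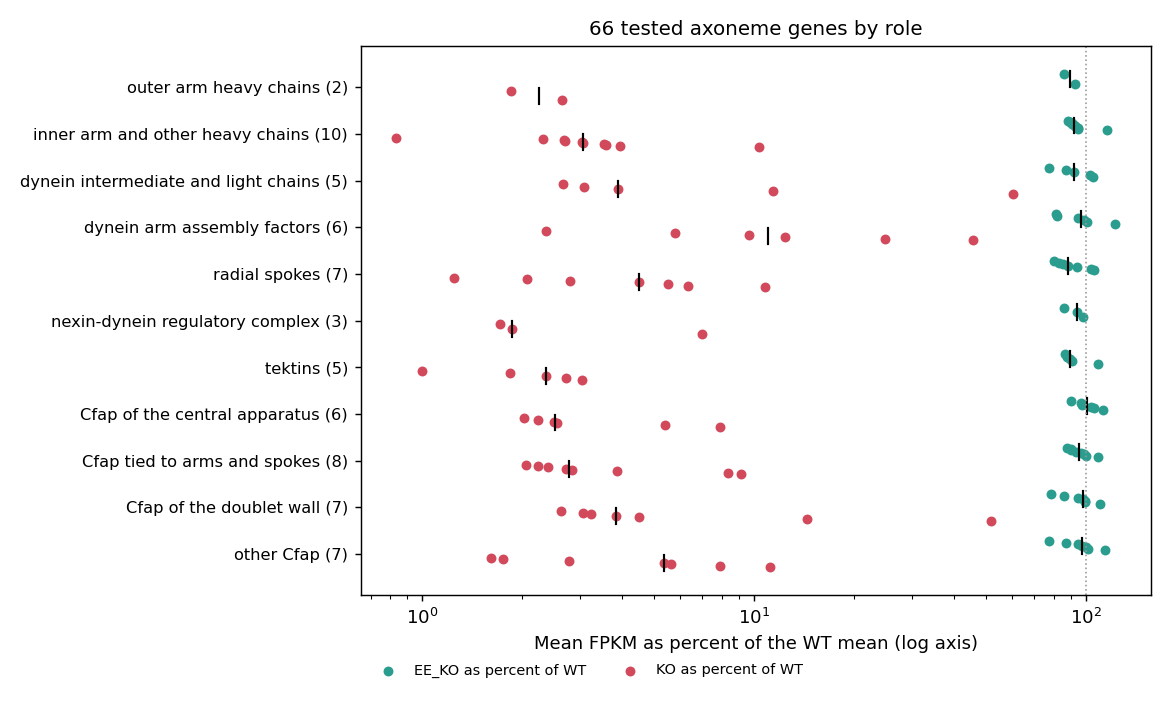
Mean level of each of the 66 tested axoneme genes as a percentage of its WT mean (horizontal axis, log scale), by structural role, for EE_KO and KO (n = 2 libraries each); ticks mark the median of a role. The EE_KO points lie around 100%, and most KO points lie between 1 and 10%, with Dnal1, Cfap20, Dnaaf5 and Dnaaf2 above 20%.

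Outer dynein arms carry the heavy chain motors that set beat frequency, and 5 heavy chain genes of this arm were measured. Sperm and airway cilia use different ones, and only Dnah8 and Dnah17, those of the sperm flagellum, were abundant. Dnah8 (ENSMUSG00000033826, GRCm38 chromosome 17, 30624354 to 30877365, plus strand) had 245 and 260.0 FPKM in EE_KO, 5.14 and 5.70 FPKM in KO, and 315 and 271 FPKM in WT. Dnah17 (ENSMUSG00000033987, chromosome 11, 118021723 to 118130634, minus strand) had 112 and 116 FPKM in EE_KO, 2.98 and 3.51 FPKM in KO, and 131 and 115 FPKM in WT. For each gene both KO libraries lay far below all others. The log2 change in KO against WT was -5.51 ± 0.12 (SE) for Dnah8 (adjusted p = 5.34e-08, limma). It was -4.87 ± 0.12 for Dnah17 (adjusted p = 5.42e-08, limma).

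The outer arm heavy chains of airway cilia stayed low in all groups, with no library above 1.13 FPKM. Dnah5 had 0.271 and 0.145 FPKM in EE_KO, 0.0178 and 0.0147 FPKM in KO, and 0.151 and 0.258 FPKM in WT, which in KO is 5 and 4 reads. Dnah11 had 0.0567 and 0.0555 FPKM in EE_KO, 0.123 and 0.0637 FPKM in KO, and 0.0988 and 0.0777 FPKM in WT, with overlapping groups. Dnah9 was the only axoneme gene whose KO libraries both lay above both WT libraries, with 0.540 and 0.427 FPKM in EE_KO, 1.13 and 0.733 FPKM in KO, and 0.363 and 0.435 FPKM in WT. It passed the test only where the filter on low values was dropped (log2 change 0.46, adjusted p = 0.047, limma). As a ratio of mean levels, Dnah8 exceeded Dnah5 by 1214 times in EE_KO, 333 times in KO and 1435 times in WT. Dnah17 exceeded Dnah9 by 236 times in EE_KO, 3.48 times in KO and 308 times in WT.

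**Figure D2:**
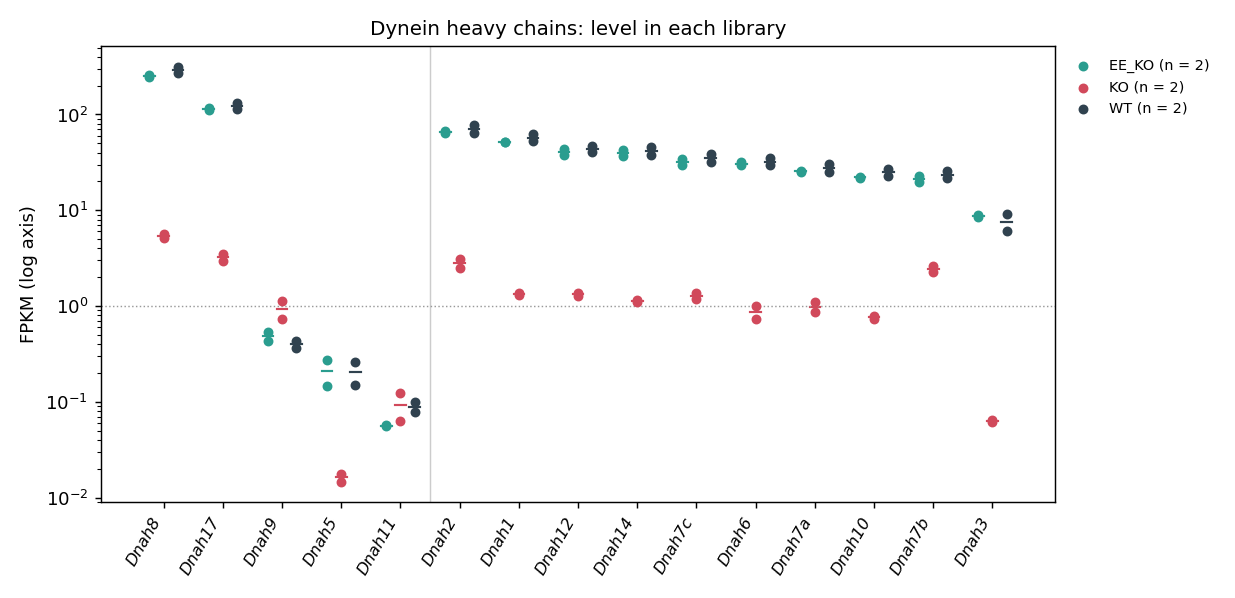
FPKM of the 15 dynein heavy chain genes (vertical axis, log scale) in each library of EE_KO, KO and WT; points are libraries and short bars are group means (n = 2). Dnah8 and Dnah17 are highest in EE_KO and WT, Dnah5, Dnah9 and Dnah11 stay near or below 1 FPKM, and Dnah9 has both KO libraries above all others.

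Inner dynein arms shape the bend, and all 10 heavy chain genes grouped with them fell, with a median KO level of 3.05% of WT. Dnah2 and Dnah10 encode the heavy chains of the double-headed inner arm. Dnah2 had 64.3 and 66.7 FPKM in EE_KO, 2.51 and 3.06 FPKM in KO, and 77.6 and 63.6 FPKM in WT. Dnah10 had 22.0 and 22.4 FPKM in EE_KO, 0.785 and 0.737 FPKM in KO, and 27.2 and 23.0 FPKM in WT. Although the double-headed arm holds both proteins, the Dnah2 level was 2.95 times the Dnah10 level in EE_KO, 3.66 times in KO and 2.82 times in WT.

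Dnah1, a single-headed inner arm motor needed for sperm flagella in mouse and human, had 51.6 and 51.7 FPKM in EE_KO, 1.29 and 1.36 FPKM in KO, and 61.8 and 53.1 FPKM in WT. Its log2 change in KO against WT was -4.65 ± 0.12 (SE, adjusted p = 5.99e-08, limma). Dnah6 had 29.6 and 31.7 FPKM in EE_KO, 0.735 and 0.991 FPKM in KO, and 35.0 and 29.5 FPKM in WT. Dnah12, another inner arm heavy chain, had 37.6 and 43.4 FPKM in EE_KO, 1.27 and 1.38 FPKM in KO, and 46.5 and 40.2 FPKM in WT. Dnah14, whose place in the axoneme is less well known, had 36.6 and 42.9 FPKM in EE_KO, 1.09 and 1.17 FPKM in KO, and 46.1 and 38.0 FPKM in WT. In each of these 4 genes the KO libraries lay below all others, and the EE_KO and WT libraries overlapped except for Dnah1.

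Dnah3 kept the smallest share of its WT level among the genes tested, 0.838%. It had 8.57 and 8.99 FPKM in EE_KO, 0.0623 and 0.0644 FPKM in KO, and 6.02 and 9.09 FPKM in WT, and 16 reads in each KO library. Its log2 change of -2.99 ± 0.19 (SE, adjusted p = 2.51e-06, limma) is small for that share because the 1 FPKM added before the log weighs on low genes. The overlap of Dnah3 exons with another gene, Lyrm1, covered 10.5% of its exon bases.

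The Dnah7 genes form a family of 3 near-copies on chromosome 1, and between 30.0 and 46.8% of their 50-base stretches occur in another copy, so that their separate levels are uncertain. Dnah7a had 25.3 and 25.8 FPKM in EE_KO, 0.872 and 1.10 FPKM in KO, and 30.2 and 25.3 FPKM in WT. Dnah7c had 29.5 and 34.7 FPKM in EE_KO, 1.18 and 1.35 FPKM in KO, and 38.9 and 31.6 FPKM in WT. Dnah7b kept more than either, with 19.95 and 22.8 FPKM in EE_KO, 2.62 and 2.25 FPKM in KO, and 25.4 and 21.7 FPKM in WT. The KO level was 10.3% of WT for Dnah7b, against 3.55% for Dnah7a and 3.59% for Dnah7c.

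Intermediate and light chains anchor the arms and regulate the motors, and all 5 fell. Dnaic1, an outer arm intermediate chain, had 58.6 and 58.6 FPKM in EE_KO, 1.96 and 1.97 FPKM in KO, and 70.2 and 57.4 FPKM in WT. Its partner Dnaic2 had 32.1 and 32.6 FPKM in EE_KO, 1.34 and 1.92 FPKM in KO, and 48.9 and 34.8 FPKM in WT. Dnali1, the light intermediate chain of the inner arms (ENSMUSG00000042707, chromosome 4, 125055338 to 125065703, minus strand), had 141 and 143 FPKM in EE_KO, 3.0 and 4.18 FPKM in KO, and 143 and 127 FPKM in WT. These 3 genes kept between 2.66 and 3.89% of their WT level in KO, beside a median of 3.05% for the inner arm heavy chains.

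The light chains were less reduced. Dnal4 had 46.8 and 43.5 FPKM in EE_KO, 6.82 and 4.98 FPKM in KO, and 51.4 and 52.3 FPKM in WT, so that 11.4% remained in KO. Dnal1, a light chain that binds an outer arm heavy chain (ENSMUSG00000042523, chromosome 12, 84114366 to 84147498, plus strand), had 9.17 and 9.37 FPKM in EE_KO, 5.98 and 4.87 FPKM in KO, and 10.4 and 7.55 FPKM in WT. It was the least reduced axoneme gene tested, at 60.4% of WT and a log2 change of -0.63 ± 0.17 (SE, adjusted p = 0.00914, limma). The call for Dnal1 was lost when levels were rescaled to TPM (adjusted p = 0.174), without KO replicate 2 (adjusted p = 0.0691) and without WT replicate 1 (adjusted p = 0.0582).

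**Figure D3:**
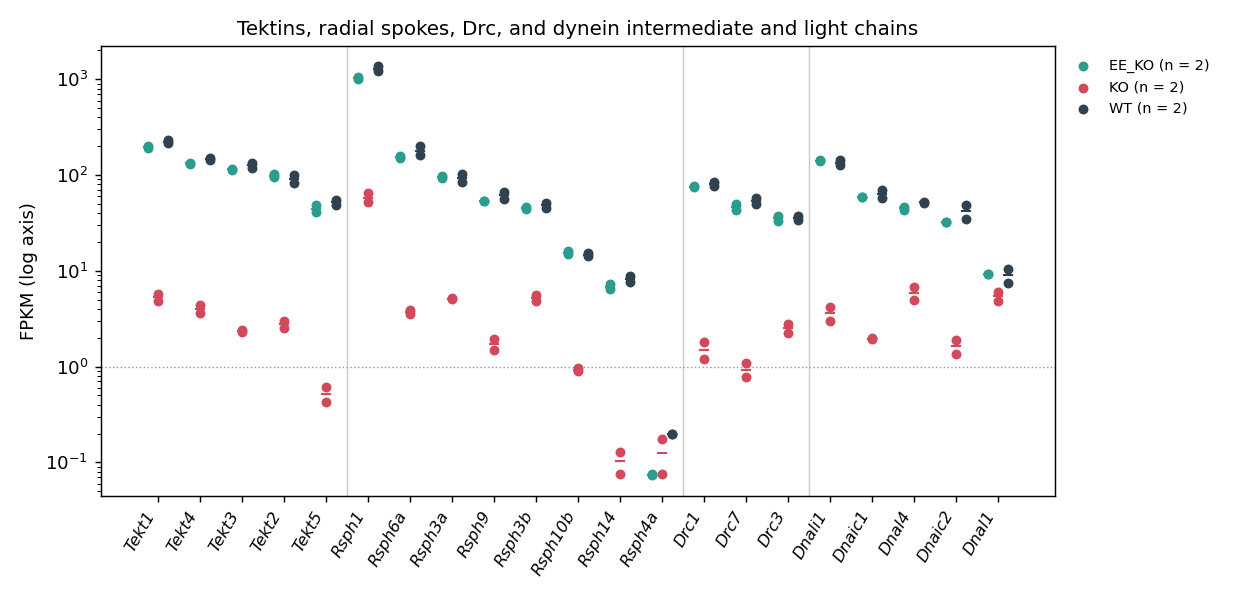
FPKM (vertical axis, log scale) of the tektin, radial spoke and Drc genes and of the dynein intermediate and light chains in each library of EE_KO, KO and WT; points are libraries and short bars are group means (n = 2). KO libraries lie below EE_KO and WT for every gene but Rsph4a, where they lie above EE_KO, and Dnal1 shows the smallest gap among the genes tested.

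Dynein arms are preassembled in the cytoplasm by Dnaaf proteins and other assembly factors before they reach the flagellum. The 6 genes of this role all fell, with a median KO level of 11% of WT, and ran from 2.37 to 45.8%. Dnaaf1 (ENSMUSG00000031831, chromosome 8, 119575235 to 119598454, plus strand) was the most abundant of them, with 468 and 469 FPKM in EE_KO, 10.8 and 12.6 FPKM in KO, and 524 and 465 FPKM in WT. Its log2 change in KO against WT was -5.28 ± 0.12 (SE, adjusted p = 5.34e-08, limma), and 20.7% of its exon bases lie under another gene, Taf1c. Dnaaf3 had 39.0 and 40.0 FPKM in EE_KO, 2.25 and 3.31 FPKM in KO, and 47.9 and 48.2 FPKM in WT. Cfap298 and Cfap300, which also act in arm assembly, kept 9.66 and 12.4% of their WT level in KO, and 53.6% of the exon bases of Cfap298 lie under other genes.

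A pair of Dnaaf genes kept much more, and these were singled out after their values were seen. Dnaaf5 had 37.4 and 39.9 FPKM in EE_KO, 15.7 and 13.3 FPKM in KO, and 33.6 and 29.7 FPKM in WT, a log2 change in KO against WT of -1.08 ± 0.12 (SE, adjusted p = 6.53e-05, limma). Dnaaf2 had 2.76 and 2.72 FPKM in EE_KO, 0.558 and 0.815 FPKM in KO, and 2.84 and 2.69 FPKM in WT. Its value is uncertain, since 68.1% of its 50-base stretches also occur in overlapping or copied genes and the strand of the reads is not given. KO stood at 45.8% of WT for Dnaaf5 and 24.8% for Dnaaf2, and the KO libraries of each gene lay below all others.

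Radial spoke genes included the most abundant axoneme gene of all. Rsph1, a spoke head protein (ENSMUSG00000024033, chromosome 17, 31255019 to 31277383, minus strand), had 1066 and 1015 FPKM in EE_KO, 51.8 and 64.5 FPKM in KO, and 1364 and 1225 FPKM in WT. Even in KO it ranked above every other axoneme gene, and its log2 change in KO against WT was -4.46 ± 0.14 (SE, adjusted p = 8.79e-08, limma). Rsph9, also of the spoke head, had 54.1 and 54.1 FPKM in EE_KO, 1.49 and 1.94 FPKM in KO, and 65.9 and 56.8 FPKM in WT.

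The spoke head also holds either Rsph6a, used in sperm, or Rsph4a, used in cilia of epithelia. Rsph6a (ENSMUSG00000040866, chromosome 7, 19054690 to 19074447, plus strand) had 158 and 149 FPKM in EE_KO, 3.52 and 3.94 FPKM in KO, and 199 and 161 FPKM in WT. Rsph4a had 0.0748 and 0.0732 FPKM in EE_KO, 0.0762 and 0.173 FPKM in KO, and 0.196 and 0.199 FPKM in WT, from 4 to 11 reads per library. Rsph6a fell by 5.25 ± 0.13 on the log2 scale (SE, adjusted p = 5.58e-08, limma), and Rsph4a was not tested.

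The spoke stalk protein Rsph3 is encoded by a pair of near-copies on chromosome 17, with 58.1 and 69.2% of 50-base stretches shared, and their separate levels are uncertain. Rsph3a had 93.9 and 98.7 FPKM in EE_KO, 5.19 and 5.04 FPKM in KO, and 102 and 83.7 FPKM in WT. Rsph3b had 46.5 and 44.3 FPKM in EE_KO, 4.79 and 5.64 FPKM in KO, and 50.8 and 45.6 FPKM in WT. Rsph3a thus stood at 2.12 times Rsph3b in EE_KO and 1.93 times in WT, but at 0.981 times in KO.

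The remaining spoke genes were lower in abundance. Rsph10b had 14.8 and 16.2 FPKM in EE_KO, 0.897 and 0.965 FPKM in KO, and 15.2 and 14.2 FPKM in WT. Rsph14 had 6.42 and 7.25 FPKM in EE_KO, 0.129 and 0.0764 FPKM in KO, and 8.80 and 7.66 FPKM in WT, and its KO libraries held 7 and 4 reads.

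The nexin-dynein regulatory complex links neighbouring doublets, and its 3 Drc members fell to a median of 1.86% of WT in KO. Drc1 (ENSMUSG00000073102, chromosome 5, 30281388 to 30366695, plus strand), a scaffold of the complex, had 74.2 and 77.0 FPKM in EE_KO, 1.2 and 1.80 FPKM in KO, and 85.1 and 76.1 FPKM in WT. Drc7 had 43.4 and 49.5 FPKM in EE_KO, 0.782 and 1.08 FPKM in KO, and 57.8 and 50.3 FPKM in WT. Drc3 had 33.1 and 37.5 FPKM in EE_KO, 2.27 and 2.75 FPKM in KO, and 37.6 and 34.3 FPKM in WT. Log2 changes in KO against WT ran from -5.04 for Drc1 to -3.40 for Drc3, each with an adjusted p of at most 2.00e-07 (limma).

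Tektins form filaments inside the doublet wall, and all 5 fell, to 1.0 to 3.04% of WT in KO. Tekt1 (ENSMUSG00000020799, chromosome 11, 72344722 to 72362442, minus strand) had 192 and 201 FPKM in EE_KO, 4.80 and 5.78 FPKM in KO, and 232 and 215 FPKM in WT. Tekt3 had 115 and 114 FPKM in EE_KO, 2.39 and 2.27 FPKM in KO, and 134 and 118 FPKM in WT. Tekt4 had 130.5 and 134 FPKM in EE_KO, 4.40 and 3.61 FPKM in KO, and 144 and 150.4 FPKM in WT. For Tekt1, Tekt3 and Tekt4 the EE_KO libraries lay below both WT libraries by a margin that was not called.

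Tekt2 had 95 and 103 FPKM in EE_KO, 2.55 and 2.97 FPKM in KO, and 82.4 and 99.2 FPKM in WT, with 20.8% of its exon bases under another gene, Gm12945. Tekt5, known in mouse from sperm flagella (ENSMUSG00000039179, chromosome 16, 10357948 to 10395490, minus strand), had 40.8 and 48.5 FPKM in EE_KO, 0.431 and 0.605 FPKM in KO, and 48.4 and 55.1 FPKM in WT. Tekt5 had the lowest KO share of the tektins, and its log2 change was -5.12 ± 0.14 (SE, adjusted p = 6.71e-08, limma). The Tekt1 level was 4.40 times the Tekt5 level in EE_KO, 10.2 times in KO and 4.32 times in WT.

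The Cfap genes encode proteins of many axonemal parts, and the 30 of 31 that were tested all fell. Those tied to the arms and spokes included the most abundant, Cfap206 (ENSMUSG00000028294, chromosome 4, 34688559 to 34730206, minus strand), a protein at the base of radial spokes. It had 289 and 327 FPKM in EE_KO, 6.88 and 8.09 FPKM in KO, and 325 and 301 FPKM in WT, a log2 change in KO against WT of -5.21 ± 0.12 (SE, adjusted p = 5.34e-08, limma). Cfap70, of the outer arm, had 117 and 133 FPKM in EE_KO, 2.28 and 3.21 FPKM in KO, and 145 and 123 FPKM in WT. Cfap57, of the inner arm, had 112 and 115 FPKM in EE_KO, 3.12 and 3.55 FPKM in KO, and 123 and 112 FPKM in WT. Cfap43 and Cfap44, which tether the double-headed inner arm, kept 2.71 and 2.24% of their WT level in KO.

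Cfap genes of the central apparatus, the projections around the central pair, fell to a median of 2.52% of WT in KO. Cfap65 was the highest, with 138 and 156 FPKM in EE_KO, 3.03 and 3.76 FPKM in KO, and 167 and 137 FPKM in WT. The other 5, Cfap46, Cfap54, Cfap69, Cfap74 and Cfap221, kept 2.04 to 7.92% in KO. Among the 7 Cfap genes of the doublet wall, Cfap52 was the most abundant, with 70.5 and 68.6 FPKM in EE_KO, 2.04 and 2.18 FPKM in KO, and 87.6 and 73.7 FPKM in WT.

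Cfap20, another doublet wall protein, known also from primary cilia and basal bodies, was singled out after its values were seen. It had 29.8 and 31.9 FPKM in EE_KO, 15.2 and 16.9 FPKM in KO, and 32.6 and 29.3 FPKM in WT, so that 51.8% remained in KO. Its log2 change in KO against WT was -0.91 ± 0.11 (SE, adjusted p = 1.14e-04, limma), and its KO libraries did not overlap the others. Among the Cfap genes of less settled place, Cfap36 had 169 and 186 FPKM in EE_KO, 19.0 and 19.8 FPKM in KO, and 186 and 162 FPKM in WT. Cfap97 had 147 and 161 FPKM in EE_KO, 8.33 and 9.5 FPKM in KO, and 182 and 134 FPKM in WT. Cfap299 had 47.5 and 49.2 FPKM in EE_KO, 1.15 and 0.795 FPKM in KO, and 59.7 and 51.0 FPKM in WT, a log2 change in KO against WT of -4.84. Cfap97d2 did not pass the filter on low values, with 0.811 and 1.14 FPKM in EE_KO, 0.0928 and 0.0480 FPKM in KO, and 0.551 and 0.771 FPKM in WT.

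**Figure D4:**
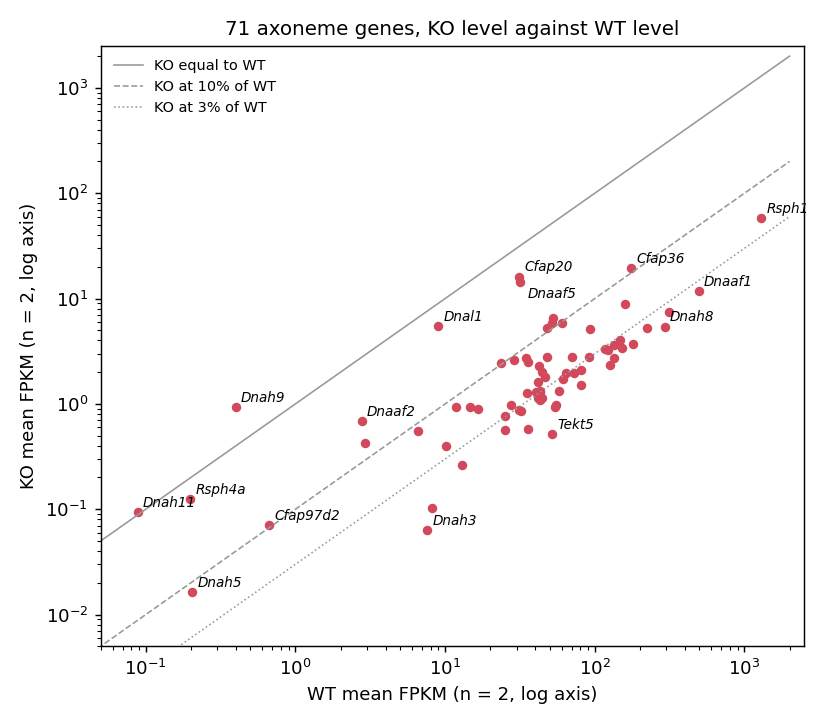
Mean FPKM of the 71 axoneme genes in KO (vertical axis) against WT (horizontal axis), both on log scales, n = 2 libraries each; lines mark KO at 100, 10 and 3% of WT. Most genes lie between the lines for 10 and 3% or below, and Dnal1, Cfap20 and Dnaaf5 lie nearest the line of equality among abundant genes.

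The residual KO levels kept much of the order seen in WT. Across the 71 genes Spearman's rho was 0.730 between mean KO and WT levels, 0.994 between mean EE_KO and WT levels, and 0.981 between the KO libraries, given as descriptions over genes that share libraries. No axoneme gene was at 0 in all libraries, and 19 had both KO libraries below 1 FPKM.

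In EE_KO the 66 tested genes stood at a median of 94.0% of WT, with quartiles of 88.2 and 99.96%. The range ran from 77.2% for Dnaic2 to 122% for Dnaaf5, and 3 genes, Dnaic2, Cfap157 and Cfap161, lay below 80%. The median log2 change in EE_KO against WT was -0.09. Both EE_KO libraries lay below both WT libraries for 20 of the 66, against 3039 of all 15363 genes tested (19.8%). They lay above them for 3 of the 66, against 2564 of all genes tested (16.7%). The share below was thus larger than over all genes, and the share above smaller. The smallest unadjusted p belonged to Cfap157, with 26.3 and 27.3 FPKM in EE_KO, 2.69 and 2.78 FPKM in KO, and 34.3 and 34.9 FPKM in WT (log2 change in EE_KO against WT -0.36, 95% interval -0.61 to -0.11, adjusted p = 0.426, limma). Cfap161, a doublet wall protein, had 31.9 and 35.1 FPKM in EE_KO, 1.15 and 1.46 FPKM in KO, and 45.2 and 40.3 FPKM in WT (log2 change in EE_KO against WT -0.34, 95% interval -0.64 to -0.04, adjusted p = 0.583, limma). Across the 66 genes the 95% intervals of this change lay within -0.77 and 0.71, so that larger differences lie outside them, while equality was not shown.

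Axoneme genes outside the name rule gave a similar picture. A list of 71 further names covered docking and assembly factors, other light chains, other parts of the nexin link, spokes and central pair, and proteins inside the doublet, of which 66 were matched and 65 tested. In KO against WT 63 fell and 2 were higher, where 48.1% of all genes tested were lower and 38.0% higher. Among the largest falls were those of Zmynd10, an arm assembly factor (log2 change -5.36), and Tcte1, a nexin link protein also known as Drc5 (-5.31). Zmynd10 had 266 and 282 FPKM in EE_KO, 4.99 and 6.81 FPKM in KO, and 304 and 259 FPKM in WT. The pair that was higher in KO, Dynlrb1 and Dynll2, encodes light chains that cytoplasmic dynein also uses. Of the 12 intermediate and light chains on this list, the other 10 fell. Whether use by cytoplasmic dynein bears on these changes was not tested. Among those that fell were Dynll1 (log2 change -0.86), Dynlt1a (-2.95) and Dynlt1f (-3.02). Dynlrb1 had 7.92 and 5.96 FPKM in EE_KO, 48.2 and 46.4 FPKM in KO, and 4.32 and 5.24 FPKM in WT. Dynll2 had 30.0 and 29.1 FPKM in EE_KO, 103 and 106 FPKM in KO, and 25.4 and 33.5 FPKM in WT. Their log2 changes in KO against WT were 3.07 ± 0.15 and 1.81 ± 0.14 (SE, adjusted p = 7.88e-07 and 5.91e-06, limma).

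Multiciliated epithelium of the efferent ducts is another source of axoneme RNA near the testis. The list used here held 12 markers of rete testis, efferent duct and multiciliated epithelium together. They summed to 47.4 and 53.4 FPKM in EE_KO, 6.52 and 6.4 FPKM in KO, and 49.7 and 59.0 FPKM in WT. Deup1, a centriole amplification gene, gave most of that sum in EE_KO and WT, with 36.8 and 44.0 FPKM in EE_KO, 0.538 and 0.504 FPKM in KO, and 35.2 and 44.9 FPKM in WT. Of the 12, 3 were tested, and Krt8 and Deup1 were lower and Ccno higher in KO. Ccno had 2.46 and 1.99 FPKM in EE_KO, 3.77 and 3.92 FPKM in KO, and 1.23 and 1.71 FPKM in WT. Among the markers not tested, both KO libraries lay above both WT libraries for Cdh1 and below them for Aqp1. Cdh1 had 0.119 and 0.102 FPKM in EE_KO, 1.17 and 1.16 FPKM in KO, and 0.125 and 0.101 FPKM in WT. Pax8 and Scgb1a1 were listed at 0 in both EE_KO and both WT libraries. Their KO means were above 0, since the lowest KO mean of the 12 markers was 0.00501 FPKM. Gmnc stayed at or below 0.0460 FPKM and Mcidas at or below 0.145 FPKM in all libraries. Together with the low levels of Dnah5, Dnah9, Dnah11 and Rsph4a, of which Dnah9 was higher in KO, these are the measurements that bear on these cell types. The share of such cells in each library was not tested.

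RFX factors bind X-box elements and FOXJ1 acts with them in ciliated cells, while RFX2 and the MYB family factor MYBL1 are known to act in mouse spermatocytes. Rfx2 had 97.2 and 96.4 FPKM in EE_KO, 3.66 and 4.42 FPKM in KO, and 96.2 and 88.9 FPKM in WT (log2 change in KO against WT -4.22, adjusted p = 6.71e-08, limma). Foxj1 had 18.1 and 15.4 FPKM in EE_KO, 0.721 and 1.05 FPKM in KO, and 16.0 and 21.2 FPKM in WT. Mybl1 had 28.6 and 33.5 FPKM in EE_KO, 10.3 and 8.94 FPKM in KO, and 30.1 and 22.6 FPKM in WT. Rfx3 was near 2 FPKM and was not called in KO against WT (log2 change -0.33, adjusted p = 0.113, limma).

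RefSeq promoters of the axoneme genes (GRCm38.p6, 250 bases before to 50 after the start site) were searched on both strands for short letter patterns. Of the 71 genes, 59 had a promoter in the table. Other genes that fell in KO were not searched as a separate set, and whether any pattern bears on the fall was not tested. GTTGCC or its reverse complement GGCAAC, the arm of an X-box, occurred in 22 of 59, or 37.3%, against 14.4% of 17492 genes with a promoter. The MYB core TAACNG or its reverse complement CNGTTA occurred in 26 of 59, or 44.1%, against 23.6% of all. TGACGT or ACGTCA, the arm of a cyclic AMP response element, occurred in 3 of 59, or 5.08%, against 9.60%. An X-box of both arms, GTTNCC and GGNAAC with 0 to 3 bases between them, occurred in 1 axoneme gene, Cfap298, or 1.69%, against 0.886% of all genes, and the counts of these X-box patterns overlap. By role, GTTGCC or GGCAAC occurred in 4 of 5 promoters of assembly factors, 3 of 5 of tektins, 4 of 9 of inner arm heavy chains, of which the near-copies Dnah7a, Dnah7b and Dnah7c are 3, and 2 of 4 of central apparatus Cfap genes. It occurred in 1 of 5 promoters of radial spoke genes, 1 of 5 of intermediate and light chains and 0 of 5 of outer arm heavy chains.

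These sequences show the element nearest the start site in genes of different roles, read 5′ to 3′ on the strand of the gene, with 1 match in capitals. All lie before the start site, and the Cfap298 window shows both arms in capitals.
Tekt1, chr11:72361883-72361917, minus strand: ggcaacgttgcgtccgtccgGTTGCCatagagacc
Tekt2, chr4:126325689-126325730, minus strand: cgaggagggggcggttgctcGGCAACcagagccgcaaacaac
Drc1, chr5:30281362-30281392, plus strand: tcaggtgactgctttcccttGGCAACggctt
Cfap46, chr7:139683816-139683844, minus strand: tggtctgggccccgtctctaGGCAACcgc
Cfap74, chr4:155409183-155409228, plus strand: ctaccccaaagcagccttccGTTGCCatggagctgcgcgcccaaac
Cfap161, chr7:83794853-83794898, minus strand: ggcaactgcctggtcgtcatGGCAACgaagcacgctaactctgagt
Dnaic2, chr11:114727373-114727418, plus strand: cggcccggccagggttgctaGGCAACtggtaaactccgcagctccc
Cfap44, chr16:44394760-44394798, plus strand: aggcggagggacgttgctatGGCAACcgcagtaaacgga
Dnah10, chr5:124725045-124725084, plus strand: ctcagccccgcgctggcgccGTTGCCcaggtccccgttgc
Cfap20, chr8:95434938-95434983, minus strand: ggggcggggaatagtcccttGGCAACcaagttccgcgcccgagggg
Cfap298, chr16:90934884-90934938, minus strand: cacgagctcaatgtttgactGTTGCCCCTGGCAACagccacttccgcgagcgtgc

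Among the genes shown, Cfap20 kept 51.8% of its WT level in KO and Drc1 kept 1.86%. A match describes letters in a window and not a binding site.

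The WT libraries differed from each other in a way that bears on EE_KO against WT. All 15 spermatid markers were higher in WT replicate 2 than in WT replicate 1, by a median of 0.75 on the log2 scale. Axoneme genes went the other way for the most part, with 12 of 66 higher in WT replicate 2 and a median difference of -0.18. Pachytene markers leaned as the axoneme genes did, with 3 of 12 higher in WT replicate 2 and a median of -0.09. Of all 15363 genes tested, 8256 were higher in WT replicate 1. The EE_KO libraries differed in one direction for these sets. Higher in EE_KO replicate 2 were 55 of 66 axoneme genes, 10 of 12 pachytene markers and all 15 spermatid markers. Their medians were 0.08, 0.09 and 0.45. Of all genes tested, 7194 were higher in EE_KO replicate 1. Tekt2, Tekt4, Tekt5, Dnah3 and Cfap100 were among the axoneme genes higher in WT replicate 2.

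**Figure D5:**
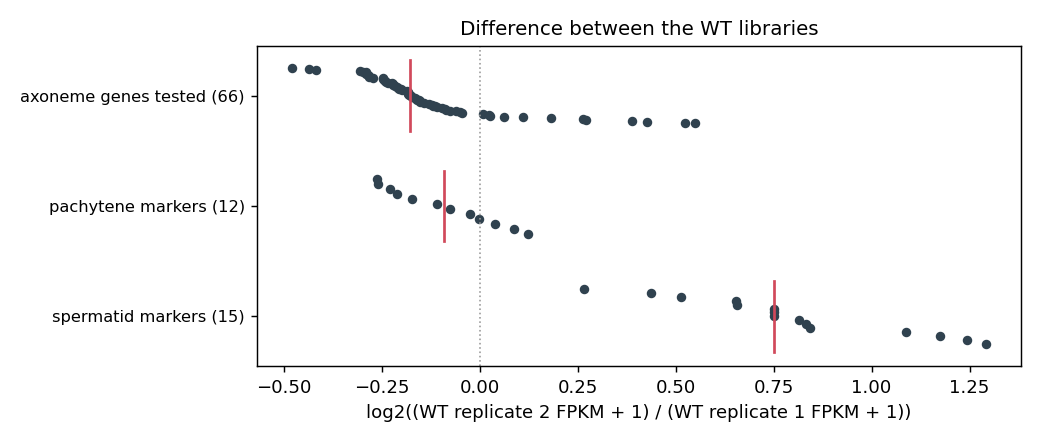
Difference between the WT libraries, as log2 of (FPKM + 1) in WT replicate 2 over that in WT replicate 1 (horizontal axis), for 66 axoneme genes, 12 pachytene markers and 15 spermatid markers; points are genes and red lines are medians. The axoneme genes centre at -0.18 with 12 above 0, and the spermatid markers at 0.75 with none below 0.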

How the data were processed

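RNA-seq of 6 libraries was used. The authors deposited FPKM per Ensembl gene, per the file headers; builds GRCm38 and mm10 are named in the submitters' processing notes, whereas aligner, counter, annotation release and read strand were not given in the sources used here. Symbols, types and positions came from GENCODE M21. FPKM times exon-union length gave whole reads for 96.8 to 97.0% of values above 0 (tolerance 0.01). Genes with mean FPKM of at least 1 were tested (15363; 535 short RNA genes and 9 lower entries of repeated symbols left out) in 1 model of all 6 libraries, limma 3.58.1 (R 4.3.3) with a mean-variance trend on log2(FPKM + 1), which understates changes of low genes. The p-values, of both sides, were adjusted by the Benjamini-Hochberg method over the whole table and called below 0.05. The code was tested on simulated data. The members, marker lists and rule for naming genes were chosen with earlier results of these data known. Values were given for the MAPS gene, all dynein chains, tektins, spoke and Drc genes, the 8 most abundant and 5 most reduced of Dnaaf and Cfap, and the largest changes among other axoneme genes. A gene that this rule names is not reported here. Genes of cell types, regulators and exceptions were added. Shared sequence was counted over 50-base stretches of the annotated exons. At least 10% of exon bases lay under another gene for 10 axoneme genes, whose values are less certain because the read strand is not given. Beside those named above, they include Cfap299 (19.1%), Dnaaf3 (16.5%), Rsph10b (15.7%), Dnaaf5 (10.6%) and Cfap157 (10.6%). Each result was recomputed with a pseudocount of 0.1 or 0.5, with the filter dropped or set at 5 FPKM, in TPM, after quantile scaling, in 2-group models, with a replicate block, without the trend, with voom on the recovered reads, and without each library. Python 3.11.15, pandas 2.3.3 and matplotlib 3.10.9 made the tables and plots.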

Additional observations from a re-analysis of the deposited data

How the results depend on the processing

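Of the 66 axoneme genes, 65 stayed lower in KO against WT under all their alternatives, 16 at most. Likewise 65 stayed higher in EE_KO against KO, and the exception was Dnal1 each time. In EE_KO against KO the Dnal1 call was lost under TPM (log2 change 0.36, adjusted p = 0.0809, limma) and without KO replicate 2 (0.56, adjusted p = 0.0505). In EE_KO against WT no axoneme gene was called under any alternative. With no filter 68 of 71 genes were called lower in KO against WT, Cfap97d2 (-0.63, adjusted p = 0.0131, limma) and Dnah5 (-0.24, adjusted p = 0.0428) among them, and 1, Dnah9, higher. Of all 35408 genes in that setting, 9775 were lower and 9125 higher. In EE_KO against KO 68 axoneme genes were then called higher, where 9521 of all 35408 genes were. The median log2 change in KO against WT (-4.11) was -4.93 and -4.45 with pseudocounts of 0.1 and 0.5, -3.65 with quantile scaling, -4.78 with voom, and -4.25 to -4.01 with each library left out. In EE_KO against KO (4.04) it was 4.26 with TPM, 3.92 with no filter, 4.82 and 4.32 with pseudocounts of 0.1 and 0.5, 3.65 with quantile scaling, 4.66 with voom, and 3.98 to 4.10 with each library left out. TPM moved the median of all genes in KO against WT to 0.09, against -0.29 as deposited. Signs reversed in EE_KO against WT for Cfap97d1 (0.16), at -0.17 without EE_KO replicate 2 and -0.05 without WT replicate 1, with up to 0.48 without EE_KO replicate 1. They reversed also for Dnah3 (0.22), at -0.0455 without WT replicate 1 and up to 0.478 without WT replicate 2, and the cause was not tested. Over 15363 genes, deviations of same-numbered libraries had correlations of -0.0306 for KO and WT, 0.0540 for EE_KO and WT and 0.0910 for EE_KO and KO. All 15 spermatid markers were nevertheless higher in replicate 2 of both WT and EE_KO. Whether the replicate number marks a pairing is therefore not known. With a replicate block 66 axoneme genes were lower in KO against WT, 66 higher in EE_KO against KO and 0 called in EE_KO against WT. The medians of the axoneme genes were then -4.11, 4.04 and -0.09. Of all 15363 genes in that setting, 7399 were lower in KO against WT and 7315 higher in EE_KO against KO. In EE_KO against WT 2 of all genes were higher and 0 lower. The planned count test was not run, since the deposited values are FPKM. With 2 libraries a group, small differences between EE_KO and WT could not be detected, and genes near 0 rest on few reads.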
